A study of Mus musculus with 6 samples.

Results

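The cytochrome P450 (CYP) genes of the hypoxic mouse lung are described here across 6 lungs. Every probe set whose gene symbol is Cyp followed by a number, letters and a number was taken, which gave 94 genes of 25428 probe sets in all. Of the 94, 18 had a mean log2 signal above the median of all probe sets (4.98), and 76 lay at or below it. The Nfat5(SMC)-/- group was 3 male mice with both floxed Nfat5 alleles and SM-MHC-CreERT2, a Cre recombinase driven by a smooth muscle myosin promoter and switched on by tamoxifen, which these mice had received by injection as adults. The Nfat5fl/fl group was 3 male mice with the same floxed alleles. By the study's methods, male offspring of the cross with SM-MHC-CreERT2 received either tamoxifen or, as this group, the solvent miglyol alone. Tamoxifen itself and the loss of Nfat5 therefore cannot be told apart. All 6 mice then spent 7 days in 10% oxygen, and 1 lung lobe per mouse was measured on a Mouse Gene 2.0 ST array. The deposited values are log2 signals. The labels number the mice of either genotype 1, 2 and 4, and values are listed in that order. Every difference is the mean log2 signal of the Nfat5(SMC)-/- lungs less that of the Nfat5fl/fl lungs.

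P450 enzymes are haem proteins that insert an oxygen atom into their substrates, with electrons handed on by P450 oxidoreductase in the endoplasmic reticulum or by ferredoxin in mitochondria. Families 1 to 3 act mainly on drugs, toxicants and carcinogens, family 4 mainly on fatty acids and eicosanoids, and other families make or break down sterols, steroid hormones, retinoids and vitamin D. In the mouse lung P450 enzymes are best known from club cells, the secretory cells of the bronchioles, whose Cyp2f2 turns inhaled naphthalene into a toxic product. Endothelium, alveolar epithelium and macrophages carry other members.

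The sequences shown are the bases just upstream of the genes on which the description turns most: 3 genes with strong signals that are known from lung epithelium, and Cyp2e1, which had the largest difference. They are the 120 bases before the RefSeq start site (GRCm38.p6), 5′ to 3′ on the strand of the gene. Capitals mark the letters TATAA of the TATA box, GCGTG of the core of the aryl hydrocarbon receptor element, or GGAAA of the core of Rel-family elements such as those of NFAT5. Each was searched on both strands, so that CACGC stands for GCGTG on the opposite strand. In the Cyp2e1 window both strands hold TATAA, and these matches overlap in the run of 6 capitals.
Cyp2f2, chr7:27119835-27119954, plus strand: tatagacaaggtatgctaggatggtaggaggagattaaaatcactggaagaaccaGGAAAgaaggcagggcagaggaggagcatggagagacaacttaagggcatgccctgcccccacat
Cyp2b10, chr7:25897538-25897657, plus strand: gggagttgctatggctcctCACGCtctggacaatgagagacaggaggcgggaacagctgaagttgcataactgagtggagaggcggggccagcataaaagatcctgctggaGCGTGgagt
Cyp4b1, chr4:115647722-115647841, minus strand: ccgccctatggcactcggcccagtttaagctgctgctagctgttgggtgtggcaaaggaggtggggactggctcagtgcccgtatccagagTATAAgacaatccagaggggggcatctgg
Cyp2e1, chr7:140763699-140763818, plus strand: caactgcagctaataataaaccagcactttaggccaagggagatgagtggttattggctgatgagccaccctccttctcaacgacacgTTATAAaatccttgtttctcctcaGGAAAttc
Windows of this length were found for 72 of the 94 genes (82 windows) and for 15 of the 18 above the median. TATAA stood in 35.4% of the 82 P450 windows and in 11.8% of 32851 windows of the whole RefSeq table, GCGTG in 13.4% against 17.8%, and GGAAA in 30.5% against 31.0%. Among the 15 windows of genes above the median, 2 held TATAA, 5 held GCGTG and 4 held GGAAA. A match is a run of letters and no measured binding.

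The arrays bear on what follows in a few ways. Surfactant, secretoglobin and the other defining lung markers were at 8.73 to 13.7 in all 6 lungs. Mean correlations within a group lay between 0.970 and 0.991, and Nfat5(SMC)-/- mouse 1 stood apart from the other lungs, at 55.8 on a first principal component that held 49.6% of the variance. Nfat5 itself was at 8.23, 7.72 and 7.89 in Nfat5(SMC)-/- lungs, against 9.18, 8.62 and 9.21 in Nfat5fl/fl lungs. All 3 Nfat5(SMC)-/- lungs lay below all 3 Nfat5fl/fl lungs, by a mean of -1.06 (SE 0.20, adjusted p = 0.0707 in limma), and by -1.20 without mouse 1 (adjusted p = 0.0440 in limma). Cells other than smooth muscle keep the gene. Probe sets differ in affinity, so the order of their signals is no order of transcript amounts. In RNA of a whole lobe, fewer cells of a type and less RNA per cell cannot be told apart.

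Of the 94 P450 genes, Cyp2e1 had by far the largest difference between the groups and was the only one with an unadjusted p under 0.05. No P450 gene passed the threshold of 0.05 on the adjusted p, in either direction. By limma 0 of 94 passed, where 0.818% of all probe sets did (0.260% higher and 0.558% lower, and 1.60% of those above the median). The methods' t-test, a one-way comparison of the 2 groups, called 0 of all 25428 probe sets. Its 0 of 94 therefore says nothing particular to P450 genes. At an unadjusted p under 0.05 limma counted 1 of the 94 (1.06%), against 19.3% of all probe sets, and among genes above the median 1 of 18 (5.56%) against 32.7%. The methods' t-test counted 5 of the 94, against 15.5% of all probe sets. The groups did not overlap for 10 of the 94 (10.6%), against 26.9% of all probe sets, of which 6 were higher (11.8% of all probe sets) and 4 lower (15.0%), and for 4 of the 18 above the median (22.2%) against 36.4%. The median difference of the 18 was -0.10, and over all 12714 probe sets above the median it was -0.01. Of the 18, 5 had a difference above 0 and 13 below, where 48.7% of all probe sets above the median had a difference above 0.

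**Figure D1:**
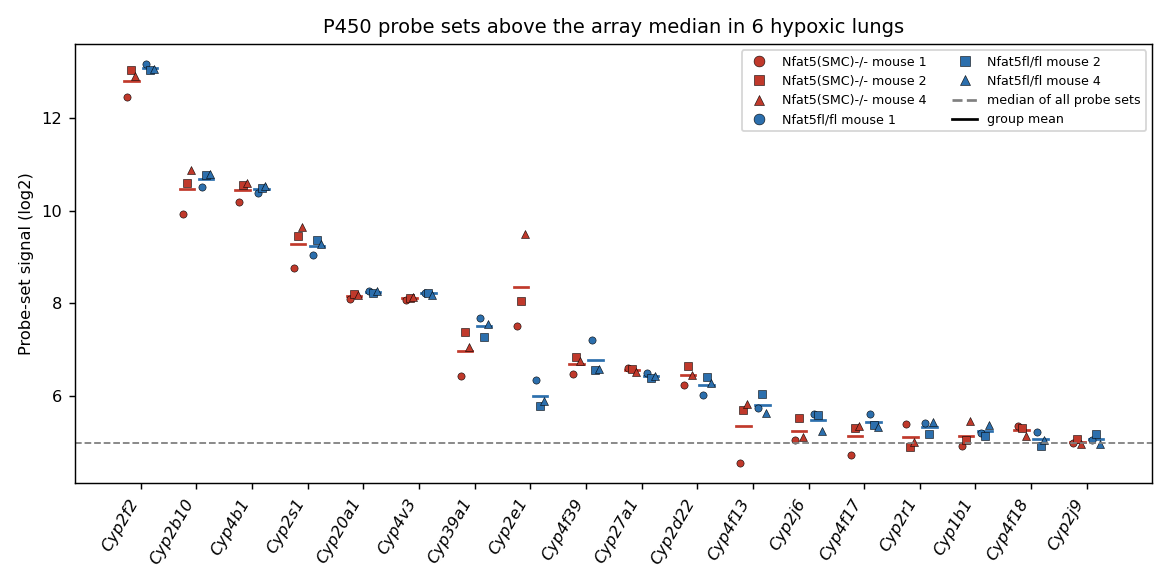
Log2 signal of the 18 P450 probe sets above the array median (dashed line, 4.98), ordered by mean signal, with Nfat5(SMC)-/- lungs in red left of Nfat5fl/fl lungs in blue. Points are lungs, with a symbol for each mouse number, and bars are group means (n = 3). Cyp2e1 is the only gene whose groups lie more than 1 log2 unit apart (lowest Nfat5(SMC)-/- lung 7.51, highest Nfat5fl/fl lung 6.34).

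Cyp2e1 oxidises ethanol, acetone and other small molecules and is best known from the liver, and mouse fat cells also carry its transcript. Its signal was 7.51, 8.04 and 9.50 in Nfat5(SMC)-/- lungs, against 6.34, 5.78 and 5.88 in Nfat5fl/fl lungs. All 3 Nfat5(SMC)-/- lungs lay above all 3 Nfat5fl/fl lungs, with a gap of 1.17 between the nearest lungs, and mouse 4 was the highest. The means were 8.35 ± 1.03 in Nfat5(SMC)-/- lungs and 6.0 ± 0.30 in Nfat5fl/fl lungs (SD, n = 3 each), a difference of 2.35 (SE 0.50, 95% interval 1.14 to 3.56), or 5.10-fold (2.20 to 11.8). It was the 17th highest difference of all probe sets. In limma the unadjusted p was 0.00302 and the adjusted p 0.0825, short of the threshold, and with 3 lungs a group the smallest p that an exact two-sided permutation test allows is 0.1. The spread among Nfat5(SMC)-/- lungs was the largest of all 94 genes. Without Nfat5(SMC)-/- mouse 1 the difference was 2.77 and passed (adjusted p = 0.0410 in limma), and without Nfat5(SMC)-/- mouse 4 it was 1.78 (adjusted p = 0.0860 in limma), in a range of 0.0118 to 0.292 over 15 alternatives.

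Markers of fat cells were also higher in Nfat5(SMC)-/- lungs. Of the 9 adipocyte markers listed, all 9 were measured, and all 9 had higher means in Nfat5(SMC)-/- lungs with a median difference of 2.49. In limma 3 passed (Plin1, Cidec and Cfd), where 0.818% of all probe sets did. The log2 of their summed signal ran from 11.8 to 12.7 in Nfat5(SMC)-/- lungs and from 9.15 to 10.1 in Nfat5fl/fl lungs, so that the groups did not overlap. Among Nfat5(SMC)-/- lungs 7 of the 9 markers, like Cyp2e1, were highest in mouse 4 and lowest in mouse 1. Among Nfat5fl/fl lungs all 9 were lowest in mouse 4, where Cyp2e1 was lowest in mouse 2. Adiponectin (Adipoq) was at 6.80, 7.81 and 8.22 in Nfat5(SMC)-/- lungs, against 5.42, 5.70 and 4.23 in Nfat5fl/fl lungs. Brown adipocyte markers had higher means for 5 of 7, with a median difference of 1.02 and 0 past the threshold in limma. At an unadjusted p under 0.05 in limma 4 of the 7 were higher, against 8.19% of all probe sets. The part of fat cells in the Cyp2e1 signal was not tested. Liver markers were low in every lung: the 11 liver markers on the array lay between 3.97 and 5.22 in all 6 lungs, around or below the array median, and albumin (Alb) was at 4.25, 4.43 and 4.45 in Nfat5(SMC)-/- lungs, against 4.82, 4.34 and 4.27 in Nfat5fl/fl lungs.

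**Figure D2:**
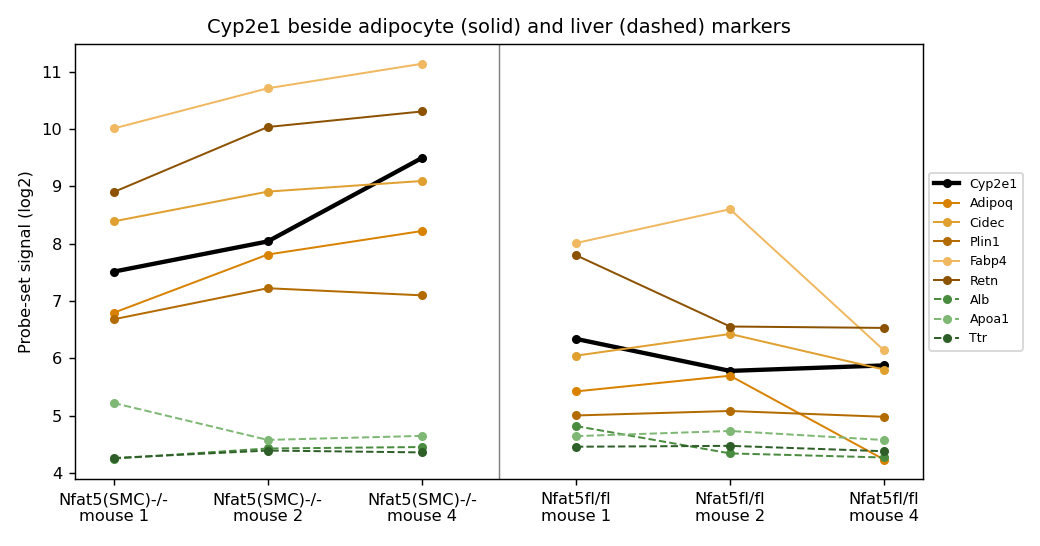
Log2 signal of Cyp2e1 (thick black), 5 adipocyte markers (solid, orange to brown) and 3 liver markers (dashed, green) in each lung, Nfat5(SMC)-/- left of Nfat5fl/fl. Lines only join the values of a gene within a group, since the lungs have no order. Cyp2e1 and the adipocyte markers are higher in Nfat5(SMC)-/- lungs, while the liver markers stay between 3.97 and 5.22.

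Of the family 2 genes that follow, Cyp2f2, Cyp2b10 and Cyp2s1 had strong signals in both groups, and Cyp2d22 had a weaker signal. Cyp2f2, the naphthalene and styrene oxidising enzyme of club cells, was at 12.46, 13.04 and 12.91 in Nfat5(SMC)-/- lungs, against 13.18, 13.04 and 13.07 in Nfat5fl/fl lungs. Mouse 1 of the Nfat5(SMC)-/- group was the lowest, and the groups met at 13.04. The difference was -0.29 (SE 0.16, adjusted p = 0.367 in limma), with a 95% interval from -0.67 to 0.08, and it was -0.12 without Nfat5(SMC)-/- mouse 1.

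Cyp2b10, in liver the classical target of the receptor CAR, was at 9.92, 10.60 and 10.88 in Nfat5(SMC)-/- lungs, against 10.52, 10.78 and 10.79 in Nfat5fl/fl lungs. The Nfat5(SMC)-/- lungs held both the lowest and the highest value, and the difference was -0.23 (SE 0.25, adjusted p = 0.667 in limma). Cyp2s1, an enzyme of airway and other epithelia that dioxin induces, was at 8.77, 9.46 and 9.65 in Nfat5(SMC)-/- lungs, against 9.04, 9.37 and 9.28 in Nfat5fl/fl lungs. Here too Nfat5(SMC)-/- lungs lay at both ends (difference 0.06, SE 0.24, adjusted p = 0.919 in limma). Cyp2d22, a member of the debrisoquine hydroxylase subfamily, was at 6.23, 6.63 and 6.45 in Nfat5(SMC)-/- lungs, against 6.01, 6.40 and 6.26 in Nfat5fl/fl lungs, and the groups overlapped (0.21, adjusted p = 0.478 in limma).

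Club cell markers were measured beside these genes. Of 10 listed, 10 were measured, 3 had a difference above 0 and 7 below, and the median difference was -0.10, with 0 past the threshold in limma. At an unadjusted p under 0.05 in limma 1 was lower, against 11.1% of all probe sets. The log2 of their summed signal was 15.0 to 15.4 in Nfat5(SMC)-/- lungs and 15.2 to 15.3 in Nfat5fl/fl lungs. The mean of the list was lowest in Nfat5(SMC)-/- mouse 1 (10.9) and highest in Nfat5(SMC)-/- mouse 4 (11.5), as it was for Cyp2b10 and Cyp2s1. Cyp2f2 was highest in Nfat5fl/fl mouse 1, and Cyp2d22 was highest in Nfat5(SMC)-/- mouse 2 and lowest in Nfat5fl/fl mouse 1. Their part in the P450 values was not tested.

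The family 2 epoxygenases, which turn arachidonic acid into epoxides that act on vessels, were low. Cyp2j6 was at 5.03, 5.53 and 5.11 in Nfat5(SMC)-/- lungs, against 5.61, 5.58 and 5.24 in Nfat5fl/fl lungs, and the groups overlapped (-0.25, adjusted p = 0.456 in limma). Cyp2j9 was the gene just inside the level threshold, with a mean of 5.02 and a difference of -0.05. The gene just outside was Cyp2u1, a hydroxylase of long-chain fatty acids, with a mean of 4.92 and a difference of -0.05. All 8 genes of the Cyp2j subfamily had a difference below 0, between -0.25 and -0.01, where 49.7% of all probe sets had a difference above 0. Only 2 of the 8 lay above the array median. At an unadjusted p under 0.05 in limma there were 0 of the 8, against 19.3% of all probe sets.

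Family 4 hydroxylates fatty acids and the leukotrienes and prostaglandins made from them. Cyp4b1, a lung enzyme that activates furans of mouldy plants, was at 10.20, 10.56 and 10.60 in Nfat5(SMC)-/- lungs, against 10.38, 10.49 and 10.55 in Nfat5fl/fl lungs. The groups overlapped and the means were close (difference -0.02, 95% interval -0.32 to 0.28, adjusted p = 0.950 in limma). Cyp4v3, counterpart of a human gene of a retinal lipid dystrophy, was at 8.06, 8.12 and 8.14 in Nfat5(SMC)-/- lungs, against 8.23, 8.22 and 8.18 in Nfat5fl/fl lungs. All 3 Nfat5(SMC)-/- lungs lay lower, by a small step of -0.11 (SE 0.06, adjusted p = 0.400 in limma).

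Several Cyp4f genes had lower means in Nfat5(SMC)-/- lungs, and mouse 1 of that group set much of the step. Cyp4f13 was at 4.53, 5.68 and 5.82 in Nfat5(SMC)-/- lungs, against 5.73, 6.04 and 5.63 in Nfat5fl/fl lungs. Only the lung of Nfat5(SMC)-/- mouse 1 lay below the range of the Nfat5fl/fl lungs, and the difference of -0.45 (SE 0.35, adjusted p = 0.534 in limma) was -0.05 without it. Cyp4f17 was at 4.72, 5.29 and 5.35 in Nfat5(SMC)-/- lungs, against 5.59, 5.35 and 5.31 in Nfat5fl/fl lungs, a difference of -0.30 (adjusted p = 0.433 in limma) that was -0.10 without mouse 1. Cyp4f39, whose human counterpart makes the very long hydroxylated fatty acids of skin ceramides, had a difference of -0.09, with Nfat5fl/fl mouse 1 highest at 7.20. Cyp4f18, which in mouse neutrophils inactivates leukotriene B4, was at 5.35, 5.30 and 5.13 in Nfat5(SMC)-/- lungs, against 5.22, 4.91 and 5.03 in Nfat5fl/fl lungs, and the groups overlapped (0.20, adjusted p = 0.355 in limma).

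Sterol, vitamin and orphan P450 genes made up most of the rest. Cyp39a1, which hydroxylates oxysterols on the way to bile acids, was at 6.42, 7.39 and 7.06 in Nfat5(SMC)-/- lungs, against 7.67, 7.28 and 7.54 in Nfat5fl/fl lungs. Nfat5(SMC)-/- mouse 1 was lowest by far, and mouse 2 lay inside the Nfat5fl/fl range. The difference of -0.54 (SE 0.25, 95% interval -1.15 to 0.07, adjusted p = 0.312 in limma) was the lowest of all 94 genes and was -0.27 without mouse 1, its smallest size over the 15 alternatives. Cyp27a1, the mitochondrial sterol hydroxylase of macrophages and liver, was at 6.59, 6.57 and 6.51 in Nfat5(SMC)-/- lungs, against 6.48, 6.38 and 6.43 in Nfat5fl/fl lungs. The groups did not overlap, by a small step of 0.13 (SE 0.06, adjusted p = 0.340 in limma).

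Cyp2r1, which makes the circulating form of vitamin D, was at 5.40, 4.89 and 5.0 in Nfat5(SMC)-/- lungs, against 5.41, 5.16 and 5.42 in Nfat5fl/fl lungs. Here Nfat5(SMC)-/- mouse 1 was the lung of its group that lay within the Nfat5fl/fl range, and the difference was -0.23 (SE 0.15, adjusted p = 0.456 in limma). Without Nfat5(SMC)-/- mouse 1 and Nfat5fl/fl mouse 2 together it was -0.47 and passed (adjusted p = 0.0433 in limma). For this gene those were the highest Nfat5(SMC)-/- lung and the lowest Nfat5fl/fl lung, so leaving them out must widen the gap. Of all probe sets, 1452 passed in that setting, against 208 with all lungs. Cyp20a1, an orphan enzyme with no known substrate, was at 8.09, 8.20 and 8.17 in Nfat5(SMC)-/- lungs, against 8.27, 8.22 and 8.27 in Nfat5fl/fl lungs. All 3 lay lower, with a difference of -0.10 (SE 0.06, adjusted p = 0.455 in limma). Cyp1b1, which activates polycyclic hydrocarbons and was the only family 1 gene above the median, had a difference of -0.10 with overlapping groups.

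**Figure D3:**
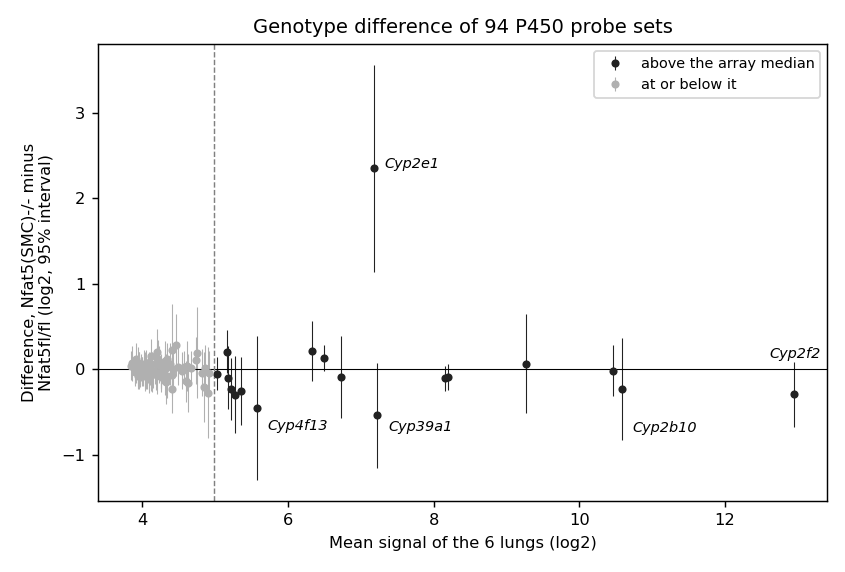
Difference between Nfat5(SMC)-/- and Nfat5fl/fl lungs (log2, vertical bars 95% intervals from limma) against the mean signal of the 6 lungs for the 94 P450 genes, black above the array median (dashed line) and grey at or below it. The Cyp2e1 interval runs from 1.14 to 3.56, and the intervals of the other 17 genes above the median all include 0.

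Apart from Cyp2e1, the 17 genes above the median had differences between -0.54 and 0.21 and adjusted p between 0.312 and 0.950 in limma, and all 17 intervals included 0. How large a difference these intervals leave room for varied by gene, from -0.25 to 0.04 for Cyp4v3 to -1.30 to 0.39 for Cyp4f13. The spread between lungs was larger among Nfat5(SMC)-/- than among Nfat5fl/fl lungs for 14 of the 18 genes, where this held for 70.4% of all probe sets above the median.

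Lung by lung, the P450 genes were low in 1 Nfat5(SMC)-/- lung. The lung of Nfat5(SMC)-/- mouse 1 held the lowest of the 6 values for 12 of the 18 genes (66.7%), while it held the lowest for 37.4% of all probe sets above the median. The median of the 18 genes, each set against its mean over the 6 lungs, was -0.26, 0.09 and 0.01 in Nfat5(SMC)-/- lungs, against 0.06, 0.06 and 0.03 in Nfat5fl/fl lungs. Only Nfat5(SMC)-/- mouse 1 lay below 0, and the other 5 lungs lay close together. Without that lung the median difference of the 18 genes was -0.02, with 9 differences above 0 and 9 below, instead of -0.10 with 5 above and 13 below.

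**Figure D4:**
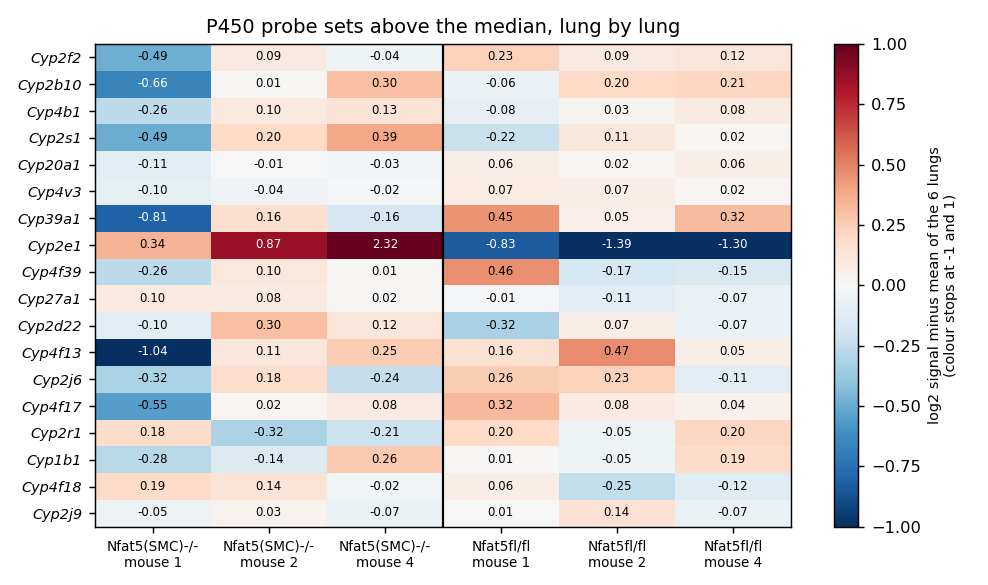
Each cell is the log2 signal of a P450 gene above the median in a lung, minus the mean of that gene over the 6 lungs (red higher, blue lower, with the colour scale ending at 1 log2 unit either way), Nfat5(SMC)-/- lungs left of Nfat5fl/fl lungs. The column of Nfat5(SMC)-/- mouse 1 is the lowest of the 6 for 12 of the 18 genes, and Cyp2e1 separates the groups.

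The 76 genes at or below the median carried little signal and little difference. 49 of them lay at or below the lower quartile of all probe sets (4.31), and for 55 the 6 lungs lay within 0.3 of each other. Their differences ran from -0.28 to 0.28 with a median of -0.01, 0 passed in limma (adjusted p 0.292 to 0.999), where 0.0315% of all probe sets at or below the median did, and 0 had an unadjusted p under 0.05, against 5.93% of those probe sets. Groups did not overlap for 6 of the 76 (7.89%), against 17.3%. The 6, named after their values were seen, were Cyp2c54, Cyp2b13, Cyp26a1 and Cyp11a1 (higher) and Cyp2j12 and Cyp4a32 (lower), with differences between -0.13 and 0.15.

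The lowest differences among these 76 were those of Cyp4f16 (-0.28), Cyp2d40 (-0.23) and Cyp7b1 (-0.21), an oxysterol hydroxylase. The highest were those of Cyp2d13 (0.28), annotated as a transcribed pseudogene, Cyp2a4 (0.22), a testosterone hydroxylase, and Cyp3a44 (0.20). None of these 6 had an unadjusted p under 0.05. Cyp8b1, the bile acid enzyme that sets the share of cholic acid, had 1 of the widest spreads of this set, 0.82 over the 6 lungs (difference 0.19).

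The Cyp2c and Cyp3a subfamilies, which dominate drug metabolism in liver, were at the low end, as were the Cyp4a genes among the 94. The 15 Cyp2c genes lay between 3.77 and 4.63 in every lung, the 7 Cyp3a genes among the 94 between 3.80 and 5.01, and the 5 Cyp4a genes among the 94, fatty acid hydroxylases that PPAR alpha drives in liver, between 3.90 and 4.37. A further Cyp4a gene whose symbol ends in a letter, Cyp4a12b, was at 4.93, 5.56 and 5.97 in Nfat5(SMC)-/- lungs, against 6.26, 5.77 and 6.03 in Nfat5fl/fl lungs. The groups overlapped, and its difference of -0.54 (adjusted p = 0.352 in limma) was -0.26 without Nfat5(SMC)-/- mouse 1. The related Cyp4a12a averaged 4.01, with a difference of 0.10 and overlapping groups. The differences ran from -0.07 to 0.14 for Cyp2c, from -0.03 to 0.20 for Cyp3a and from -0.07 to -0.00057 for Cyp4a. Genes within the Cyp2c, Cyp2d, Cyp3a and Cyp4a clusters are near copies of each other, so a probe set may also report its neighbours, and single values there are uncertain. The family 1 genes Cyp1a1 and Cyp1a2, the classical targets of the aryl hydrocarbon receptor, averaged 4.49 and 4.41 over the 6 lungs with differences of 0.03 and -0.08. The 6 genes of steroid hormone synthesis averaged 4.09 to 4.32 with differences between -0.06 and 0.05.

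Position on the chromosome was a further feature that the choice of genes did not use. In the RefSeq gene order of GRCm38.p6, Cyp2s1, Cyp2b10 and Cyp2f2 belong to 1 cluster of 12 measured Cyp2 genes on chromosome 7, and the other 9 of that cluster averaged 4.02 to 4.60, below the array median. Cyp4b1 lies next to the Cyp4a genes on chromosome 4, of which the 5 among the 94 averaged 3.91 to 4.25. Cyp2e1 is on chromosome 7 too and is the last P450 gene in order there, with Cyp2r1 before it. Of the 9 measured Cyp4f genes, 8 lie on chromosome 17 and Cyp4f18 on chromosome 8.

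Proteins that hand electrons to P450 enzymes, together with the haem-binding partners Pgrmc1 and Pgrmc2, were measured for 9 of 10 listed genes. Of the 9, 0 passed the threshold in limma in either direction. At an unadjusted p under 0.05 in limma there was 1 (Pgrmc2, higher), against 19.3% of all probe sets. Por is the oxidoreductase that serves most P450 enzymes of the endoplasmic reticulum. Its signal was 9.29, 9.75 and 9.60 in Nfat5(SMC)-/- lungs, against 8.94, 9.41 and 9.31 in Nfat5fl/fl lungs. The groups overlapped (0.33, adjusted p = 0.354 in limma). Pgrmc2, a haem-binding partner, was at 7.39, 7.64 and 7.69 in Nfat5(SMC)-/- lungs, against 7.32, 7.17 and 6.96 in Nfat5fl/fl lungs. The groups did not overlap, with a difference of 0.43 (SE 0.13, adjusted p = 0.147 in limma). Of 6 measured P450 genes that carry other kinds of symbol, Ptgis, which makes the vasodilator prostacyclin, was at 8.68, 8.55 and 8.65 in Nfat5(SMC)-/- lungs, against 7.93, 8.20 and 8.30 in Nfat5fl/fl lungs. All 3 Nfat5(SMC)-/- lungs lay higher (0.48, SE 0.11, adjusted p = 0.0910 in limma), and 0 of the 6 passed.

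Receptors and factors that drive P450 transcription were measured for all 12 listed genes, and 0 passed in limma. At an unadjusted p under 0.05 in limma, 2 were higher and 1 lower, against 8.19% and 11.1% of all probe sets. Ahr, the aryl hydrocarbon receptor, was at 9.04, 9.08 and 8.86 in Nfat5(SMC)-/- lungs, against 9.37, 9.67 and 9.26 in Nfat5fl/fl lungs. All 3 lay lower, by -0.44 (SE 0.13, adjusted p = 0.136 in limma), while of 4 measured targets of this receptor outside the P450 family 1 had a difference above 0 and 3 below, with 0 at an unadjusted p under 0.05. The retinoid X receptors Rxrb (0.69, adjusted p = 0.126 in limma) and Rxra (0.32, adjusted p = 0.185 in limma), partners of CAR, PXR and the PPARs, showed no overlap, with the Nfat5(SMC)-/- lungs above. Nr1i3 (CAR) and Nr1i2 (PXR) themselves averaged below the array median.

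Other enzymes of drug metabolism that the lung carries were measured for 15 of 16 listed genes. Of these 0 passed in limma. At an unadjusted p under 0.05 in limma 1 was higher and 3 were lower, against 8.19% and 11.1% of all probe sets. All 15 lay above the array median, where 32.7% of all probe sets had such a p in either direction. The median difference of the 15 was -0.11, against -0.01 over all probe sets above the median. Ephx2, the soluble epoxide hydrolase that breaks down the epoxides made by P450 epoxygenases, was at 6.01, 5.39 and 6.15 in Nfat5(SMC)-/- lungs, against 4.92, 4.89 and 4.61 in Nfat5fl/fl lungs. The groups did not overlap, with a difference of 1.05 (SE 0.21, adjusted p = 0.0741 in limma). Fmo2, the flavin monooxygenase of the lung, was at 11.04, 10.94 and 11.26 in Nfat5(SMC)-/- lungs, against 11.86, 11.65 and 11.87 in Nfat5fl/fl lungs. All 3 lay lower, by -0.71 (SE 0.11, adjusted p = 0.0548 in limma), and the gene passed without Nfat5(SMC)-/- mouse 1 (adjusted p = 0.0493 in limma). The aldehyde oxidase Aox1 (-0.33) and the retinal dehydrogenase Aldh1a1 (-0.31), the last also in the club cell list, had an unadjusted p of 0.0336 and 0.0460 in limma.

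**Figure D5:**
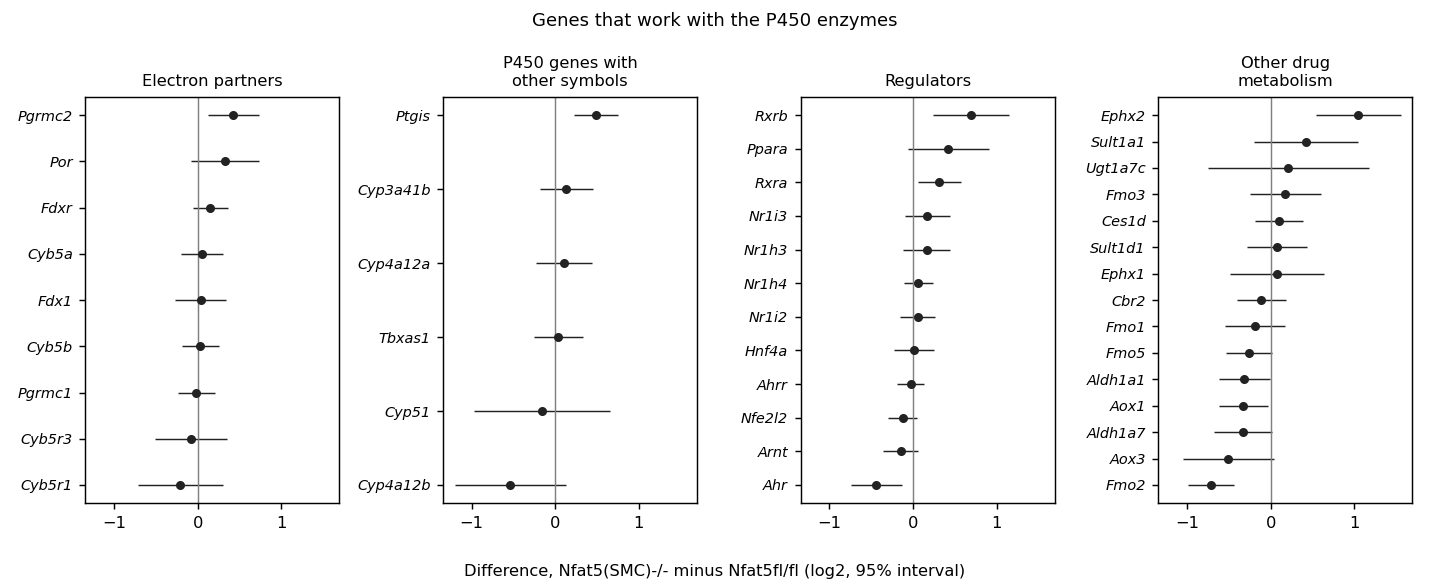
Differences between Nfat5(SMC)-/- and Nfat5fl/fl lungs (log2, bars 95% intervals from limma, n = 3 each) for electron partners (with the haem-binding Pgrmc1 and Pgrmc2), P450 genes with other symbols, transcription regulators and other drug metabolism genes. None passed the adjusted threshold. The largest differences were 1.05 for Ephx2 and -0.71 for Fmo2.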

How the data were processed

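Total RNA of 1 lung lobe from each of 6 mice (3 per genotype) was hybridised to Mouse Gene 2.0 ST arrays, 1 array per mouse. The authors made the deposited log2 values with quantile normalisation and RMA (from the submitters' processing notes; version not given in the sources used here). A custom chip definition of version 22 put the probes into 1 probe set per Entrez gene. After this normalisation all arrays share 1 distribution, so a difference is relative to the rest of the array and a global shift is invisible. The number of arrays limits the precision. The sources used here name no genome build for the values.

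Symbols came from the platform table (93 of the 94 P450 genes) or the RefSeq gene table of GRCm38.p6 (1, Cyp19a1). Both groups were compared over all 25428 probe sets, unfiltered and without a covariate, by a two-sided moderated test in limma 3.58.1 (lmFit, eBayes) under R 4.3.3. Benjamini-Hochberg adjustment ran over the whole table, with a threshold of 0.05. The one-way test of the study's methods was run as an alternative.

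The text names every P450 gene above the array median. Of the others it names those past the threshold, the 3 highest and 3 lowest differences and the widest spreads. Of the lists of partner genes and markers it names those with the smallest p or highest level. Adipoq, Alb, Nr1i2, Nr1i3, Pgrmc1, Cyp2u1, Cyp1a1, Cyp1a2 and Cyp19a1 are named outside that rule. Also outside it are the P450 genes at or below the median that are named because their groups did not overlap. Members and lists were chosen with earlier results of these data known. The fit was tested on simulated data. Alternatives were the methods' t-test, a mean-dependent or robust prior, array weights, cyclic loess, a filter at the array median, the mouse number as a block, a correction for gene span and leaving out lungs.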

Additional observations from a re-analysis of the deposited data

How the results depend on the processing

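The median difference of the 18 P450 genes above the median lay between -0.13 and -0.01 over the 15 alternatives, 5 of which (t-test, both priors, filter and block) leave differences as they are by construction. Calls past the adjusted threshold of 0.05 appeared in 3 of them: 1 higher (Cyp2e1) and 1 lower (Cyp2r1) with array weights, 1 higher (Cyp2e1) without Nfat5(SMC)-/- mouse 1, and 1 lower (Cyp2r1) without Nfat5(SMC)-/- mouse 1 and Nfat5fl/fl mouse 2 together. Nfat5, Pgrmc2, Rxrb, Ephx2 and Fmo2 also passed with array weights, and Nfat5, Rxrb and Fmo2 without both lungs. Leaving out 1 lung at a time gave 0 to 1 called higher and 0 called lower. Over all probe sets, the 208 calls became 3263 with array weights, 1452 without both lungs, 0 to 980 without 1 lung (980 without Nfat5(SMC)-/- mouse 1), 147 with the robust prior, 112 above the array median, 40 after the span correction, 2 with the mean-dependent prior, 1 after cyclic loess and 0 by the t-test.

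At an unadjusted p under 0.05, P450 genes numbered, of 94 each time, 3 higher and 2 lower by the t-test (15.5% of all probe sets), 3 higher with the mean-dependent prior (18.7%), 6 higher and 1 lower with array weights (28.7%), 3 higher and 1 lower after the span correction (19.8%), 3 higher and 2 lower without both lungs (23.4%), and 1 to 3 higher and 0 to 4 lower without 1 lung (12.5% to 21.6%; 4 lower without Nfat5(SMC)-/- mouse 2). The cause was not tested.

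Deviations from the group means correlated at 0.133, 0.411 and 0.0775 between same-numbered lungs and at -0.329 to 0.145 between others. Nfat5(SMC)-/- mouse 4 correlated best with Nfat5fl/fl mouse 1, and the numbers are not taken as pairs. With the mouse number as a block, 0 probe sets passed, and 2 of 94 P450 genes were higher at an unadjusted p under 0.05 (Cyp2e1 and Cyp2d22), against 19.6% of all probe sets.

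Some genes changed sign. With array weights the difference was 0.0441 for Cyp4b1, 0.0913 for Cyp4f39, 0.0116 for Cyp2j9, 0.0143 for Cyp4f16, -0.0343 for Cyp8b1, 0.13 for Cyp51 and -0.40 for Aldh3a1. After cyclic loess Cyp4b1 was at 0.0162. Without both lungs it was 0.0837 for Cyp2b10, 0.11 for Cyp4b1, 0.0745 for Cyp4f13, 0.0151 for Cyp2j9, 0.0307 for Cyp4f16, -0.0282 for Cyp8b1, 0.0889 for Cyp51 and -0.89 for Aldh3a1. Without 1 lung the ranges were -0.44 to 0.0431 for Cyp2b10, -0.0927 to 0.10 for Cyp4b1, -0.12 to 0.33 for Cyp2s1, -0.21 to 0.11 for Cyp4f39, -0.26 to 0.0141 for Cyp1b1, -0.10 to 0.0043 for Cyp2j9, -0.0066 to 0.43 for Cyp2a4, -0.0673 to 0.33 for Cyp8b1, -0.38 to 0.22 for Cyp51 and -0.32 to 0.90 for Aldh3a1.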

Other observations

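Aldh3a1, an aldehyde dehydrogenase and target of the aryl hydrocarbon receptor, followed the mouse number. It was at 9.47, 7.08 and 8.44 in Nfat5(SMC)-/- mice 1, 2 and 4, against 9.15, 6.86 and 8.15 in Nfat5fl/fl mice 1, 2 and 4. Mouse 1 was highest and mouse 2 lowest in both groups. The range was 2.39 in Nfat5(SMC)-/- lungs and 2.29 in Nfat5fl/fl lungs, while same-numbered lungs differed by 0.222 to 0.327.

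Cyp51, the lanosterol demethylase of cholesterol synthesis, was at 5.43, 6.51 and 6.63 in Nfat5(SMC)-/- lungs, against 6.59, 6.08 and 6.37 in Nfat5fl/fl lungs. Its symbol has no letter and number after the family number, and it is thus outside the 94 genes. Nfat5(SMC)-/- mouse 1 was the lowest of the 6, as for 12 of the 18 P450 genes above the median.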
